A study of Homo sapiens with 6 samples.

Results

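The Wnt signalling genes described here are 43 genes picked by symbol from a table of 61806 genes, and each symbol matched 1 row. By role they are 5 ligands, 2 genes of ligand maturation, 10 receptors and co-receptors, 3 R-spondin receptors, 2 receptor ligases, 4 secreted inhibitors, 5 genes of the DVL and NKD families, 5 genes of the destruction complex, 4 TCF/LEF factors and 3 further target genes. Of the 43, 12 are marked as known transcriptional targets of the pathway, whatever their role. Ishikawa, the line that gave the RNA, was established from a human endometrial adenocarcinoma and was kept in DMEM with serum; no treatment is listed. The RNA was sequenced in 3 libraries that overexpress TEFM and 3 libraries labelled EV, a term the labels do not spell out. TEFM is the mitochondrial transcription elongation factor. The labels call the overexpressing cells derivatives of the line, without saying whether each is a clone or a pool, or which promoter drove TEFM. The replicates are described as independent and biological, so the p-values measure the spread between libraries and not between separately made derivatives.

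In the canonical Wnt pathway, a secreted and lipid-modified Wnt protein binds a Frizzled receptor and the co-receptor LRP5 or LRP6. Dishevelled proteins are recruited, the destruction complex of AXIN, APC and GSK3 stops marking beta-catenin for degradation, and beta-catenin acts with TCF/LEF factors on target genes, several of which encode inhibitors of the pathway itself. R-spondins bound to LGR receptors keep the ligases RNF43 and ZNRF3 from removing Frizzled from the membrane. In the endometrium, Wnt signalling is known for its part in the growth and regeneration of the glandular epithelium, where LGR5 has been used as a marker of progenitor-like cells.

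Library totals ran from 14252668 to 17562807 counts in the TEFM libraries and from 15092555 to 17891047 counts in the EV libraries. TEFM itself had 23.7, 22.7 and 24.0 FPKM (counts scaled to exonic length and to the library total) in the TEFM libraries, against 4.13, 4.24 and 4.55 FPKM in the EV libraries. The 5 epithelial markers EPCAM, KRT8, KRT18, KRT19 and CDH1 summed to 596 to 624 FPKM in the TEFM libraries, against 435 to 483 FPKM in the EV libraries. Each of the 5 was called higher (100%), against 21.7% of all tested genes. Among the 6 markers of endometrial epithelium, PAX8, FOXA2, SOX17, MUC1, ESR1 and PGR, 3 fell under the filter on low values, namely FOXA2, ESR1 and PGR. The 6 summed to 120 to 127 FPKM in the TEFM libraries, against 113 to 116 FPKM in the EV libraries. PAX8 made up most of the sum, with means of 89.7 FPKM in the TEFM and 89.3 FPKM in the EV libraries, and was not called. SOX17 and MUC1 were called higher, 66.7% of the 3 tested, against 21.7% of all tested genes. Without a filter PGR was called lower, with 4, 3 and 5 counts in the TEFM and 17, 5 and 18 in the EV libraries (log2 fold change -1.64, edgeR adjusted p = 0.0412). In all, 1 of 6 fibroblast and 1 of 5 leukocyte markers had 0 counts. Markers of fibroblasts, leukocytes and endothelium summed to at most 2.35, 0.65 and 0.49 FPKM in any library. Whether the difference in epithelial markers bears on the Wnt genes was not tested.

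In the TEFM libraries, the R-spondin receptor gene LGR5 and the target gene TNFRSF19 fell far more than the other Wnt genes, while the receptors FZD4, FZD5, FZD8 and LRP5 and the target gene MYC rose by smaller amounts. The beta-catenin gene CTNNB1 and the scaffold genes AXIN1 and APC did not pass the test. GSK3B, a kinase gene of the destruction complex, was called lower, and DVL3 and TCF7L1 were called higher. Differences were tested with edgeR's quasi-likelihood test in genes with a mean of at least 1 FPKM over the 6 libraries, which 33 of the 43 genes reached, and were called at an adjusted p under 0.05. Of the 33, 10 were called higher (30.3%) and 6 lower (18.2%), where 21.7% of all 14254 tested genes were called higher and 21.7% lower. In either direction, 16 of the 33 (48.5%) were called, against 43.4% of all tested genes, so the share was near that of the whole table. Without composition scaling 8 were called higher and 9 lower. The median log2 fold change, TEFM minus EV, was 0.08 for the 33 genes and -0.0027 for all tested genes. A called change of at least 0.5 on the log2 scale was reached by 4 of the 33 genes (12.1%) and by 12.6% of all tested genes. FZD8 and DKK1 passed the filter only because 1 group lay above 1 FPKM. The values of the groups did not overlap for 18 of the 33 (54.5%), against 51.6% of all tested genes. In bulk RNA, fewer cells expressing a gene and less of its RNA per cell cannot be told apart.

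**Figure D1:**
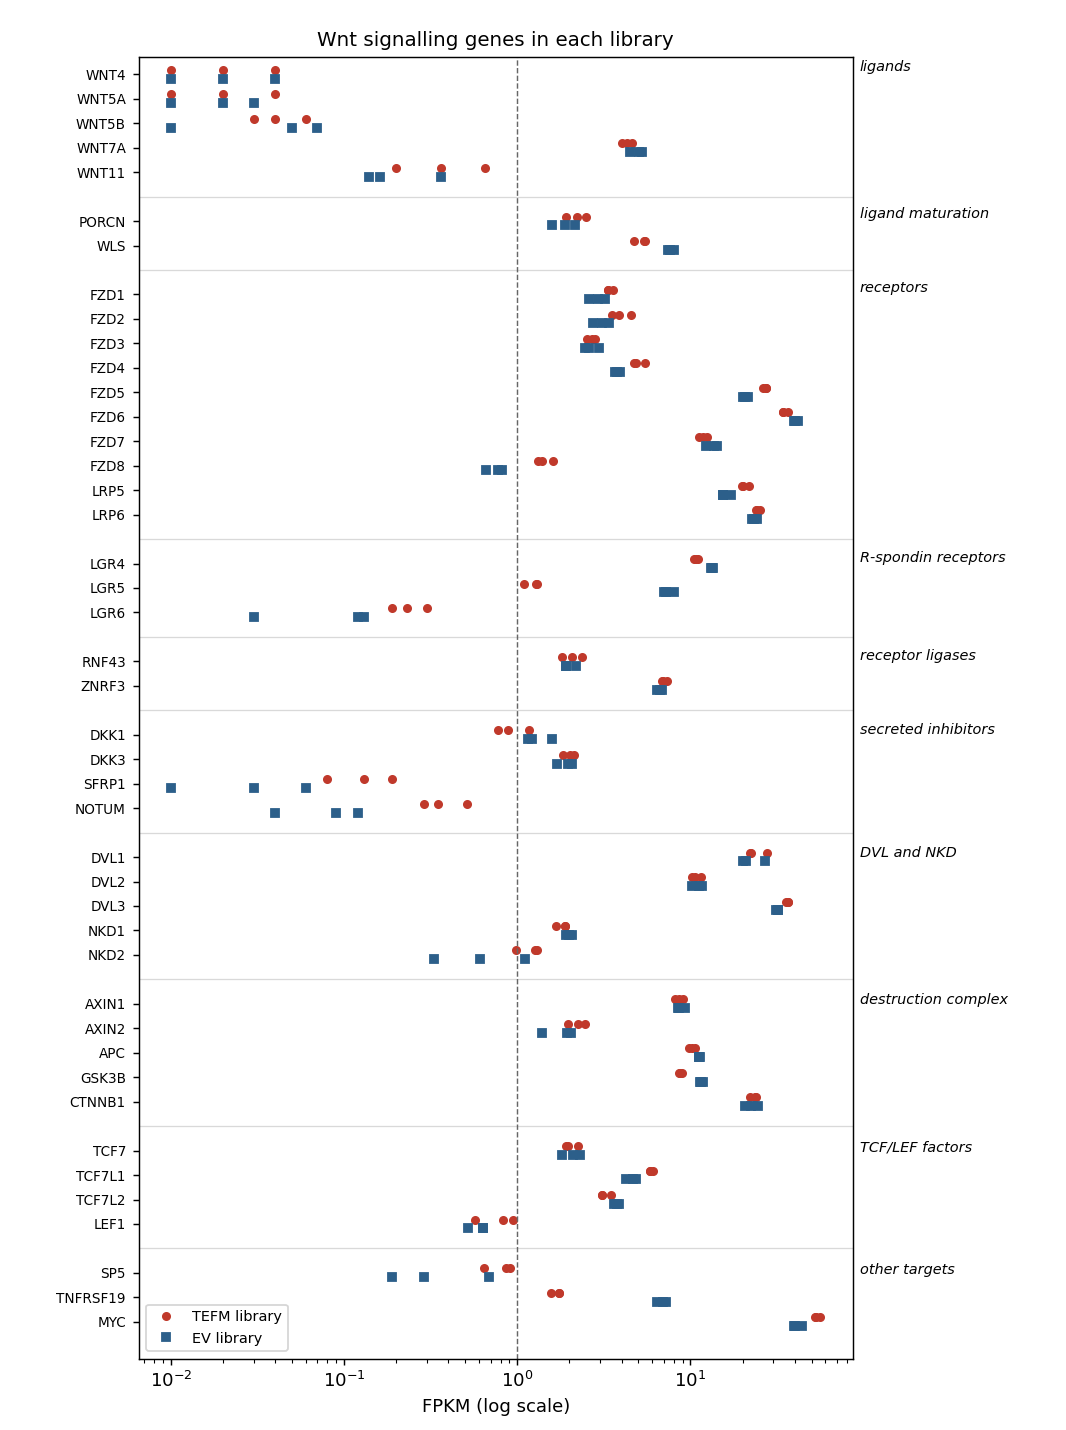
FPKM of the 43 Wnt signalling genes in each library on a log axis, with TEFM libraries as circles above EV libraries as squares in each row and genes grouped by role; the dashed line marks the filter of 1 FPKM, which is set on the mean of the 6 libraries. LGR5 and TNFRSF19 show the widest gaps among genes above the line, and 4 of the 5 ligands lie below it.

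LGR5 (ENSG00000139292, chromosome 12, 71439798 to 71586310, plus strand, in the table's coordinates) encodes a receptor for R-spondins and is itself a target of beta-catenin and TCF. It stood at 1.09, 1.30 and 1.28 FPKM in the TEFM libraries, against 7.22, 8.0 and 7.02 FPKM in the EV libraries. All 3 TEFM values lay far below the lowest EV value, and the libraries of each group lay close together. The gene was 5.91-fold lower (log2 fold change -2.56, standard error 0.104, edgeR adjusted p = 1.09e-15). Only 0.232% of the tested genes had a lower log2 fold change. The other tested genes in the same 10 Mb of chromosome 12, 29 in number, had a median log2 fold change of -0.10. Among the genes that overlap LGR5, the most abundant was an unnamed one on the opposite strand, with a mean of 0.667 counts in the TEFM libraries and 5.67 counts in the EV libraries.

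Its paralogues, which encode R-spondin receptors too, moved by less or lay near the detection limit. LGR4, the most abundant of the 3, had 10.5, 11.1 and 10.8 FPKM in the TEFM libraries, against 13.6, 13.4 and 13.1 FPKM in the EV libraries, groups that did not overlap (log2 fold change -0.26, standard error 0.0519, edgeR adjusted p = 0.0002). LGR6 had 18, 16 and 20 counts in the TEFM libraries and 10, 2 and 10 counts in the EV libraries. It was called higher in a fit without a filter (log2 fold change 1.34, edgeR adjusted p = 0.0344), a call lost without TEFM replicate 1 (adjusted p = 0.0609), TEFM replicate 3 (0.165) or EV replicate 2 (0.242). As a share of the summed FPKM of LGR4, LGR5 and LGR6, LGR5 made up 9.96% ± 0.662 in the TEFM libraries and 35.5% ± 1.62 in the EV libraries (SD, n = 3 each). The summed level of the 3 receptors was 12.3 ± 0.369 FPKM in the TEFM libraries and 20.8 ± 0.567 FPKM in the EV libraries (SD, n = 3 each). The R-spondin genes RSPO1 to RSPO4, which encode the ligands of these receptors, reached at most 10 counts in any library.

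The ligases that R-spondins hold in check, RNF43 and ZNRF3, are also targets of the pathway, and neither passed the test. ZNRF3 had 6.93, 7.34 and 6.89 FPKM in the TEFM libraries and 6.89, 6.43 and 6.64 FPKM in the EV libraries, values that meet at 6.89. Its log2 fold change of 0.12 had a 95% interval of -0.01 to 0.26. RNF43 averaged 2.08 ± 0.276 FPKM in the TEFM libraries and 1.99 ± 0.162 FPKM in the EV libraries (SD, n = 3 each), with an interval of -0.15 to 0.36.

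TNFRSF19 (ENSG00000127863, chromosome 13, 23570370 to 23676104, plus strand), a receptor of the TNF receptor family also called TROY and a known Wnt target, had the second largest fall of the tested Wnt genes. It stood at 1.57, 1.75 and 1.74 FPKM in the TEFM libraries, against 7.19, 6.39 and 6.94 FPKM in the EV libraries. Again the groups lay far apart and the libraries of each close together. The gene was 3.95-fold lower (log2 fold change -1.98, standard error 0.0984, edgeR adjusted p = 4.91e-14), while its 42 tested neighbours in the same 10 Mb had a median of -0.09.

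SP5 (ENSG00000204335, chromosome 2, 170715337 to 170718078, plus strand) encodes a zinc finger factor that beta-catenin induces directly. It lay under the filter, with 30, 33 and 19 counts in the TEFM libraries and 7, 9 and 23 counts in the EV libraries, and EV replicate 3 overlapped the TEFM libraries. Without a filter SP5 was called higher (log2 fold change 1.09, edgeR adjusted p = 0.0283). That call was lost without TEFM replicate 1 (adjusted p = 0.0792), TEFM replicate 2 (0.114), EV replicate 1 (0.255) or EV replicate 2 (0.122).

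The promoters of SP5 and TNFRSF19 are shown because both are known Wnt targets that were called in opposite directions, SP5 only in the fit without a filter. The windows run from 250 bases before to 50 bases after an annotated start, are from RefSeq on GRCh38.p14, and lie on the plus strand at chr2:170715087-170715386 for SP5, at chr13:23570162-23570461 for the first start of TNFRSF19 and at chr13:23579110-23579409 for its second. Gene counts do not show which start of TNFRSF19 the cells used. Capitals mark the core of the TCF/LEF motif, CTTTG, on either strand (read as CAAAG on the strand printed), extended where it is part of the longer motif CTTTGAT, which contains the core.
SP5 promoter: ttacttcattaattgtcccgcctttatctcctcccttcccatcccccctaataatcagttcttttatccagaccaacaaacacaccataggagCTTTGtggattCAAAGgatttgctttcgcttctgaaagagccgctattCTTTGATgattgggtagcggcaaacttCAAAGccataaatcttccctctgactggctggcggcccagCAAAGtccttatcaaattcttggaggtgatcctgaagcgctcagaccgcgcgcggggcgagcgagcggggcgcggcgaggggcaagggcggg
TNFRSF19 promoter, first start: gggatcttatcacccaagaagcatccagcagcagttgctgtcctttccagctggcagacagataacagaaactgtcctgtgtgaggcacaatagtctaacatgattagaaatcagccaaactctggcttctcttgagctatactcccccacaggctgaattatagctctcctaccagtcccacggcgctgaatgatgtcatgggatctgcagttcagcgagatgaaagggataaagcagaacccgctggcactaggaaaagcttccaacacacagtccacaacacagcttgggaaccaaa
TNFRSF19 promoter, second start: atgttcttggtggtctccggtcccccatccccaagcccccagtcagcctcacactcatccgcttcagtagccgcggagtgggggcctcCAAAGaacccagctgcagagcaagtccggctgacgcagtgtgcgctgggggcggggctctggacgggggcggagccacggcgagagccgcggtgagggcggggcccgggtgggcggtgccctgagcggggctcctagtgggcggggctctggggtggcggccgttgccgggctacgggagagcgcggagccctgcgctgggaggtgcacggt

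The SP5 window held 5 cores, at 157, 146, 109, 82 and 42 bases before the start, of which the one at 109 was the longer motif. The first window of TNFRSF19 held none and the second held 1 core, at 162 bases before the start. Among all 35116 windows of the same length, 47.5% held the core and 2.62% the longer motif. Windows were at hand for 29 of the 43 Wnt genes, 41 in all; the core was in 13 of them, belonging to 11 genes, and the longer motif in that of SP5. A match describes letters in these windows and not binding.

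The other target genes were split. MYC, the growth-promoting transcription factor, had 56.2, 52.4 and 53.0 FPKM in the TEFM libraries, against 40.4, 44.0 and 39.5 FPKM in the EV libraries, with no overlap (log2 fold change 0.42, standard error 0.0435, edgeR adjusted p = 2.17e-08). AXIN2, a scaffold of the destruction complex and a widely used readout of canonical signalling, had 2.45, 2.25 and 1.97 FPKM in the TEFM libraries and 2.05, 1.38 and 1.93 FPKM in the EV libraries. These ranges overlap, and the log2 fold change of 0.35 missed the threshold (edgeR adjusted p = 0.0556). Without TEFM replicate 3, EV replicate 1 or EV replicate 3 the adjusted p of AXIN2 was 0.0450, 0.0287 and 0.0391, and with a replicate block it was 0.0449. NOTUM, a secreted enzyme that removes the lipid of Wnt proteins and is induced by the pathway, had 17, 26 and 12 counts in the TEFM libraries, against 6, 4 and 2 counts in the EV libraries. The NOTUM groups did not overlap, and without a filter it was called higher (log2 fold change 2.19, edgeR adjusted p = 0.000758).

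Of the 12 targets among the Wnt genes, 9 were tested, with MYC called higher (11.1%) and LGR5 and TNFRSF19 lower (22.2%), against 21.7% in each direction over all tested genes; with upper-quartile scaling 2 were higher and 2 lower. The 6 that did not pass were AXIN2, RNF43, ZNRF3, NKD1, TCF7 and DKK1. The median log2 fold change was 0.01 over the 9, and 0.06 over the 8 that reached the filter in both groups.

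**Figure D2:**
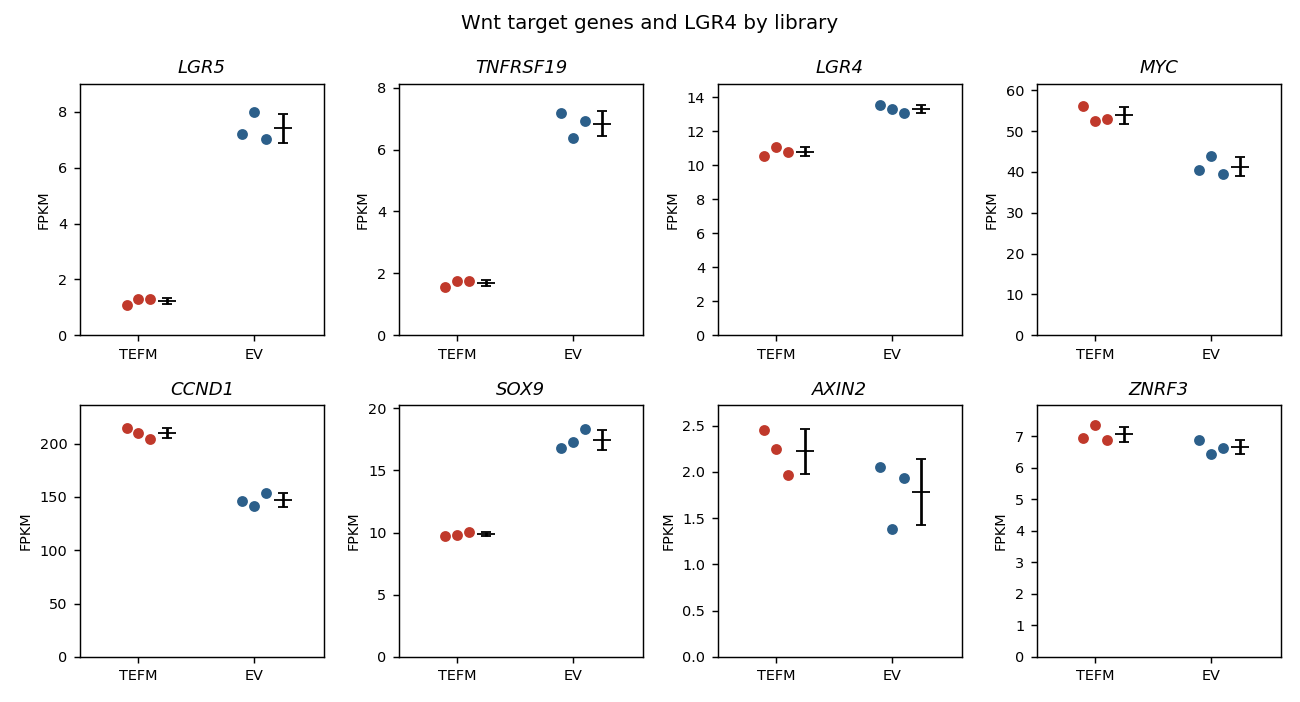
FPKM of 6 listed Wnt genes (LGR5, TNFRSF19, LGR4, MYC, AXIN2, ZNRF3) and of the further targets CCND1 and SOX9, 1 point per library with TEFM left of EV, and the mean with its SD beside the points on axes that start at 0. LGR5, TNFRSF19, LGR4 and SOX9 lie lower and MYC and CCND1 higher in every TEFM library than in any EV library, while the values of AXIN2 overlap and those of ZNRF3 meet.

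A wider list held 93 other genes of the pathway, 11 of them further targets. Of its 7 tested further targets, CCND1, CD44 and SOX4 were called higher, SOX9, JAG1 and EPHB3 lower, and BMP4 did not pass; 85.7% were thus called, against 43.4% of all tested genes. CCND1, which encodes cyclin D1, had 215, 210 and 205 FPKM in the TEFM libraries, against 146, 142 and 154 FPKM in the EV libraries (log2 fold change 0.55, edgeR adjusted p = 8.3e-12). Its 202 tested neighbours in the same 10 Mb bin, near the edge of which CCND1 lies, had a median of 0.20, whose part in the value was not tested. SOX9, a transcription factor of glandular epithelia, had 9.75, 9.81 and 10.0 FPKM in the TEFM libraries, against 16.8, 17.3 and 18.3 FPKM in the EV libraries (log2 fold change -0.78, edgeR adjusted p = 1.72e-10). JAG1, which encodes a ligand of Notch receptors, was 2.03-fold lower, with 22.9, 21.8 and 23.1 FPKM in the TEFM libraries, against 47.4, 50.5 and 43.6 FPKM in the EV libraries (edgeR adjusted p = 6.43e-15). EPHB3, an ephrin receptor gene, had a log2 fold change of -0.52, and SOX4 and CD44 had 0.47 and 0.80. The further target EPHB2 lay under the filter, with 74, 90 and 48 counts in the TEFM libraries and 26, 25 and 16 in the EV libraries. Without a filter EPHB2 was called higher (log2 fold change 1.68, edgeR adjusted p = 8.05e-09). Over the 16 tested targets of both lists, 4 were called higher (25%) and 5 lower (31.2%), against 21.7% in each direction over all tested genes.

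**Figure D3:**
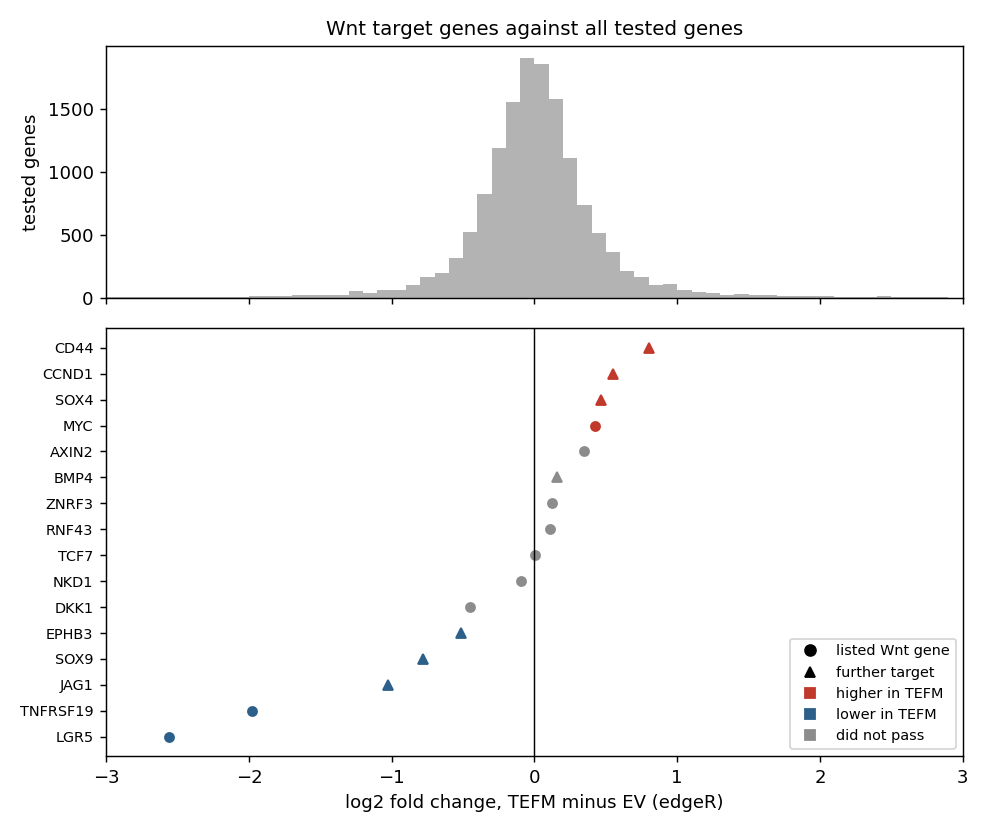
Upper panel, the number of all tested genes by log2 fold change, TEFM minus EV, in bins of 0.1; lower panel, the 16 tested Wnt targets on the same axis, with listed Wnt genes as circles, further targets as triangles and colour giving the call. LGR5 at -2.56 and TNFRSF19 at -1.98 lie in the lower tail of the histogram, and the other 14 lie on both sides of 0.

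Of the Wnt ligands, 4 of 5 stayed under the filter. WNT7A, a ligand of the uterine epithelium, was the exception, with 4.31, 4.6 and 4.01 FPKM in the TEFM libraries and 4.5, 5.27 and 5.01 FPKM in the EV libraries. The groups overlap and the difference did not pass (log2 fold change -0.15, 95% interval -0.34 to 0.05, edgeR adjusted p = 0.217). WNT4, WNT5A and WNT5B had 1 to 5 counts in every library of either group, too few for a comparison. WNT11 had 8, 15 and 22 counts in the TEFM libraries and 6, 13 and 6 counts in the EV libraries, and did not pass without a filter (edgeR adjusted p = 0.258). The median of its 95 tested neighbours in the same 10 Mb bin of chromosome 11 was 0.43. Among the 14 ligands of the wider list, 3 were tested. Of these, WNT3A, a ligand of the canonical pathway, was called higher (33.3%, against 21.7% of all tested genes). WNT3A had 4.90, 4.47 and 4.47 FPKM in the TEFM libraries, against 3.36, 2.65 and 3.53 FPKM in the EV libraries (log2 fold change 0.57, standard error 0.128, edgeR adjusted p = 0.000775). WNT3 and WNT9A did not pass, with log2 fold changes of -0.26 and 0.03.

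Wnt proteins need PORCN, which attaches their lipid, and WLS, which carries them to the cell surface. WLS fell, with 5.45, 5.38 and 4.69 FPKM in the TEFM libraries, against 7.57, 8.04 and 7.39 FPKM in the EV libraries (log2 fold change -0.52, standard error 0.0824, edgeR adjusted p = 1.37e-05). Every TEFM value lay below every EV value. The 29 tested neighbours of WLS in the same 10 Mb bin had a median of -0.21. PORCN averaged 2.20 ± 0.291 FPKM in the TEFM libraries and 1.88 ± 0.285 FPKM in the EV libraries (SD, n = 3 each), ranges that overlap, and did not pass (edgeR adjusted p = 0.0983), although it did without EV replicate 2 (0.0401).

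All 8 listed Frizzled genes, which encode the receptors that bind Wnt proteins, were tested. Of these, 5 were called higher (62.5%, against 21.7% of all tested genes), FZD6 was called lower (12.5%, against 21.7%), and FZD3 and FZD7 did not pass. FZD8, among the 5, passed the filter only through the TEFM libraries. FZD6 and FZD5 were the most abundant. FZD6 had 34.2, 34.3 and 36.8 FPKM in the TEFM libraries, against 39.8, 41.9 and 40.0 FPKM in the EV libraries (log2 fold change -0.17, edgeR adjusted p = 0.00302). FZD5 had 27.3, 27.3 and 26.2 FPKM in the TEFM libraries, against 20.6, 20.2 and 21.4 FPKM in the EV libraries (log2 fold change 0.42, edgeR adjusted p = 1.06e-08). In the same 10 Mb bins, the 34 tested neighbours of FZD6 had a median of -0.15, near its own value, and the 55 of FZD5 had -0.12. The part of the neighbours in either value was not tested. Neither gene's groups overlapped, and they differed in opposite directions, so that the ratio of FZD5 to FZD6 was 0.770 ± 0.0487 in the TEFM libraries and 0.512 ± 0.0267 in the EV libraries (SD, n = 3 each). FZD8, the least abundant, was near the filter with 1.32, 1.6 and 1.39 FPKM in the TEFM libraries, against 0.77, 0.82 and 0.66 FPKM in the EV libraries (log2 fold change 0.97, standard error 0.192, edgeR adjusted p = 0.000212).

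FZD4 had 5.45, 4.73 and 4.83 FPKM in the TEFM libraries, against 3.94, 3.75 and 3.68 FPKM in the EV libraries (log2 fold change 0.44, edgeR adjusted p = 6.41e-05). Its groups did not overlap. The gene lies on chromosome 11, where its 21 tested neighbours in the same 10 Mb bin had a median of 0.28. It overlaps PRSS23 on the opposite strand, whose mean counts were 281 in the TEFM libraries and 209 in the EV libraries. The part of the neighbours or of PRSS23 in the value of FZD4 was not tested. FZD1 and FZD2, with log2 fold changes of 0.27 and 0.42, were called on smaller margins. The call of FZD1 was lost without TEFM replicate 3 (edgeR adjusted p = 0.0939), without EV replicate 1 (0.137), without composition scaling (0.0520) and with limma (0.106). That of FZD2 was lost without TEFM replicate 1 (adjusted p = 0.0685) without EV replicate 1 (0.0523) and with limma (0.0569). FZD3 averaged 2.68 ± 0.142 FPKM in the TEFM libraries and 2.68 ± 0.247 FPKM in the EV libraries (SD, n = 3 each), with overlapping ranges. FZD7, at 11.8 ± 0.625 FPKM in the TEFM libraries and 13.4 ± 1.01 FPKM in the EV libraries (SD, n = 3 each), missed the threshold (adjusted p = 0.0768) and passed without TEFM replicate 1 (0.0497), EV replicate 2 (0.0179) or composition scaling (0.0261).

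Summed over the 8 genes, Frizzled RNA was 90.4 ± 1.37 FPKM in the TEFM libraries and 87.9 ± 1.41 FPKM in the EV libraries (SD, n = 3 each), and the ranges overlap. Rescaled by the TMM factors that the fold changes use, the sums were 92.3, 90.1 and 92.5 in the TEFM libraries, against 86.2, 86.0 and 87.8 in the EV libraries, and no longer overlapped. Within the sum, FZD5 took 29.8% ± 0.945 in the TEFM libraries and 23.6% ± 0.444 in the EV libraries. FZD6 took 38.8% ± 1.54 in the TEFM libraries and 46.2% ± 1.57 in the EV libraries. The order of the group means, FZD6, FZD5, FZD7, FZD4, FZD2, FZD1, FZD3 and FZD8, was the same in both groups, though the ranges of FZD1 and FZD2 overlap in both groups and those of FZD1, FZD2 and FZD3 in the EV libraries.

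**Figure D4:**
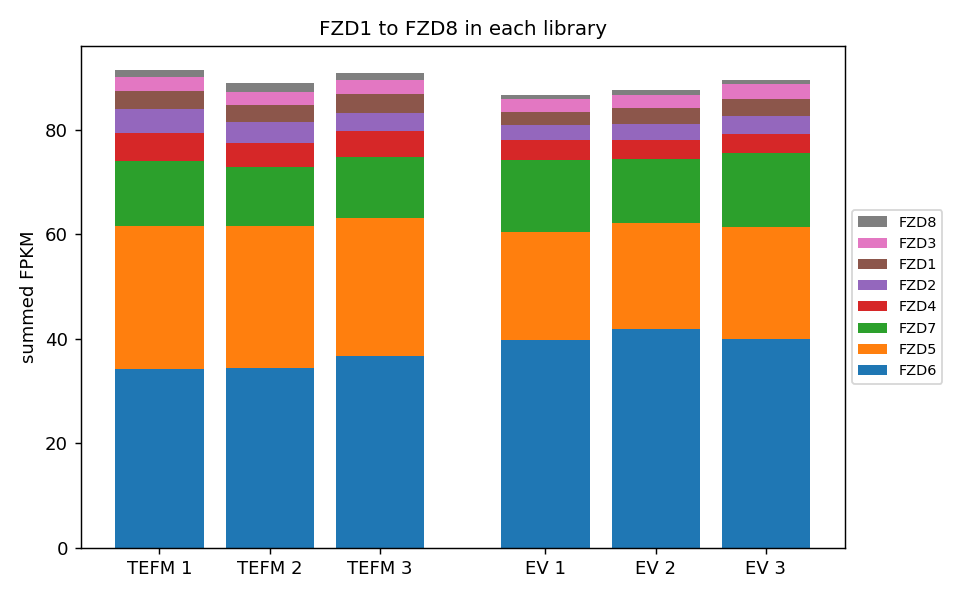
FPKM of FZD1 to FZD8 stacked for each library, with the 3 TEFM libraries left of the 3 EV libraries. The summed height, not rescaled by TMM, stays between 86.7 and 91.5 FPKM in all 6 libraries, while the FZD5 layer is thicker and the FZD6 layer thinner in the TEFM libraries.

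The co-receptor genes LRP5 and LRP6 were among the more abundant of the Wnt genes. LRP5 had 21.9, 20 and 19.8 FPKM in the TEFM libraries, against 15.3, 15.3 and 17.2 FPKM in the EV libraries, without overlap (log2 fold change 0.41, standard error 0.0522, edgeR adjusted p = 7.43e-07). It lies on chromosome 11, and its 202 tested neighbours in the same 10 Mb bin had a median of 0.20. Their part in the value of LRP5 was not tested. LRP6 averaged 24.5 ± 0.707 FPKM in the TEFM libraries and 23.4 ± 0.741 FPKM in the EV libraries (SD, n = 3 each), ranges that overlap. Its log2 fold change of 0.11 was called (edgeR adjusted p = 0.0378), but not without TEFM replicate 2 (0.191), TEFM replicate 3 (0.0807), EV replicate 2 (0.0945) or EV replicate 3 (0.113), nor with a replicate block (0.0566), DESeq2 (0.0518) or no composition scaling (0.184).

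Among the 7 other receptors of the wider list, 5 were tested, of which 3 were called lower (60%) and 0 higher, against 21.7% in each direction over all tested genes. The Frizzled genes FZD9 and FZD10 stayed under the filter. Without a filter FZD9 was called higher (log2 fold change 0.88, edgeR adjusted p = 0.0237), while FZD10 had 0 counts. ROR2, a receptor tyrosine kinase for non-canonical Wnt ligands, had 0.68, 0.74 and 0.76 FPKM in the TEFM libraries, against 1.63, 1.81 and 2.18 FPKM in the EV libraries (log2 fold change -1.33, edgeR adjusted p = 2.48e-07), and passed the filter only through the EV libraries. RYK had a log2 fold change of -0.28 and PTK7 of -0.21, both called. RECK and ROR1 did not pass.

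Of the 4 secreted inhibitors among the 43 genes, DKK1 and DKK3 passed the filter and neither passed the test. DKK1, which blocks LRP5 and LRP6 and is a target of the pathway, had 0.88, 0.77 and 1.17 FPKM in the TEFM libraries and 1.16, 1.58 and 1.21 FPKM in the EV libraries. Its groups overlap, and the log2 fold change of -0.45 had a 95% interval of -0.99 to 0.09 (edgeR adjusted p = 0.171). DKK3, a divergent member of the family, averaged 1.99 ± 0.141 FPKM in the TEFM libraries and 1.91 ± 0.191 FPKM in the EV libraries (SD, n = 3 each). It overlaps USP47 on the opposite strand, which held 1042 mean counts in the TEFM libraries and 1253 in the EV libraries, and since strand use in counting is not stated, reads may be shared. SFRP1, a soluble Wnt-binding protein, had 6, 16 and 9 counts in the TEFM libraries and 1, 4 and 2 counts in the EV libraries. It was called higher without a filter (edgeR adjusted p = 0.0297), but not without TEFM replicate 2 (0.270), TEFM replicate 3 (0.0681), EV replicate 1 (0.143) or EV replicate 3 (0.0650), nor with a replicate block (0.0582). Of the 14 secreted or surface inhibitors of the wider list, 3 were tested, 1 of them called higher (33.3%) and 1 lower (33.3%), against 21.7% in each direction over all tested genes. KREMEN2, called higher, passed the filter only through the TEFM libraries, so that share rests on a gene tested because it was high there. The one called lower was SOSTDC1, a secreted inhibitor that binds LRP5 and LRP6, with 3.13, 2.97 and 3.6 FPKM in the TEFM libraries, against 4.36, 4.53 and 4.26 FPKM in the EV libraries. Its groups did not overlap (log2 fold change -0.40, edgeR adjusted p = 0.0178), but the call was lost without TEFM replicate 1 (0.0532), TEFM replicate 2 (0.0743) or EV replicate 2 (0.0517).

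Of the 10 Wnt genes under the filter, 5 were called higher in the fit without one and 0 lower: LGR6, SFRP1, NOTUM, NKD2 and SP5. In that fit 9.46% of 37256 genes were called higher and 9.23% lower, a background that holds many genes with almost no counts. NKD2, a Dishevelled-binding inhibitor, had 48, 65 and 54 counts in the TEFM libraries and 17, 27 and 52 counts in the EV libraries, which overlap, and its call (edgeR adjusted p = 0.0111) was lost without TEFM replicate 2 (0.0531), TEFM replicate 3 (0.0511) or EV replicate 1 (0.309). NOTUM alone of the 5 kept its call with each library left out. LEF1 had 52, 78 and 72 counts in the TEFM libraries and 50, 51 and 54 counts in the EV libraries and did not pass (edgeR adjusted p = 0.217).

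Inside the cell, DVL3, the most abundant Dishevelled gene, had 35.8, 36.8 and 36.6 FPKM in the TEFM libraries, against 31.0, 32 and 31.9 FPKM in the EV libraries (log2 fold change 0.24, standard error 0.0384, edgeR adjusted p = 1.52e-05). The groups were apart by more than their own spread. DVL1 and DVL2 did not pass, with log2 fold changes of 0.13 and 0.01, although DVL1 was called without EV replicate 3 (adjusted p = 0.00143). NKD1, an inhibitor and target, averaged 1.81 ± 0.124 FPKM in the TEFM libraries and 1.99 ± 0.0902 FPKM in the EV libraries (SD, n = 3 each), without overlap, and did not pass (adjusted p = 0.348).

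Where 43.4% of all tested genes were called in either direction, the destruction complex showed 1 called gene among 5 (20%), the kinase gene GSK3B. It had 8.61, 8.94 and 8.74 FPKM in the TEFM libraries, against 11.6, 11.8 and 11.4 FPKM in the EV libraries, with no overlap (log2 fold change -0.36, standard error 0.0400, edgeR adjusted p = 7.37e-08). GSK3A, its close relative in the wider list, was called higher, with 15.0, 15.7 and 15.0 FPKM in the TEFM libraries, against 12.6, 13.1 and 14.1 FPKM in the EV libraries (log2 fold change 0.24, edgeR adjusted p = 0.000703). The pair was set side by side after its values were seen. The summed FPKM of both was 24.0 ± 0.567 in the TEFM libraries and 24.8 ± 0.685 in the EV libraries, and the ratio of GSK3A to GSK3B 1.74 ± 0.0208 in the TEFM libraries and 1.15 ± 0.0795 in the EV libraries (SD, n = 3 each). CTNNB1, which encodes beta-catenin, had 23.6, 23.8 and 22.0 FPKM in the TEFM libraries and 22.5, 20.6 and 24.7 FPKM in the EV libraries. Its values overlap and did not pass (edgeR adjusted p = 0.235), although they did without EV replicate 3 (0.00992). AXIN1 and APC had log2 fold changes of 0.01 and -0.10 and did not pass. For APC, every TEFM value lay below every EV value. APC passed without TEFM replicate 1 (adjusted p = 0.0373) and without composition scaling (0.0128). It also passed at a mean of at least 5 FPKM (edgeR adjusted p = 0.0271) and with limma at either pseudocount (0.0440 and 0.0446).

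Of the TCF/LEF factors that act with beta-catenin on DNA, TCF7L1, often a repressor of targets, rose. It had 5.84, 6.04 and 5.86 FPKM in the TEFM libraries, against 4.86, 4.26 and 4.63 FPKM in the EV libraries (log2 fold change 0.41, standard error 0.0871, edgeR adjusted p = 0.000523). TCF7L2 had 3.10, 3.46 and 3.10 FPKM in the TEFM libraries, against 3.78, 3.63 and 3.89 FPKM in the EV libraries. Its groups did not overlap, yet the log2 fold change of -0.18 did not pass (edgeR adjusted p = 0.0903), except without composition scaling (0.0400). The ratio of TCF7L1 to TCF7L2 was 1.84 ± 0.0817 in the TEFM libraries and 1.22 ± 0.0605 in the EV libraries (SD, n = 3 each). TCF7 stood at 2.03 ± 0.189 FPKM in the TEFM libraries and 2.08 ± 0.246 FPKM in the EV libraries (SD, n = 3 each); SKP1 overlaps it on the opposite strand.

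**Figure D5:**
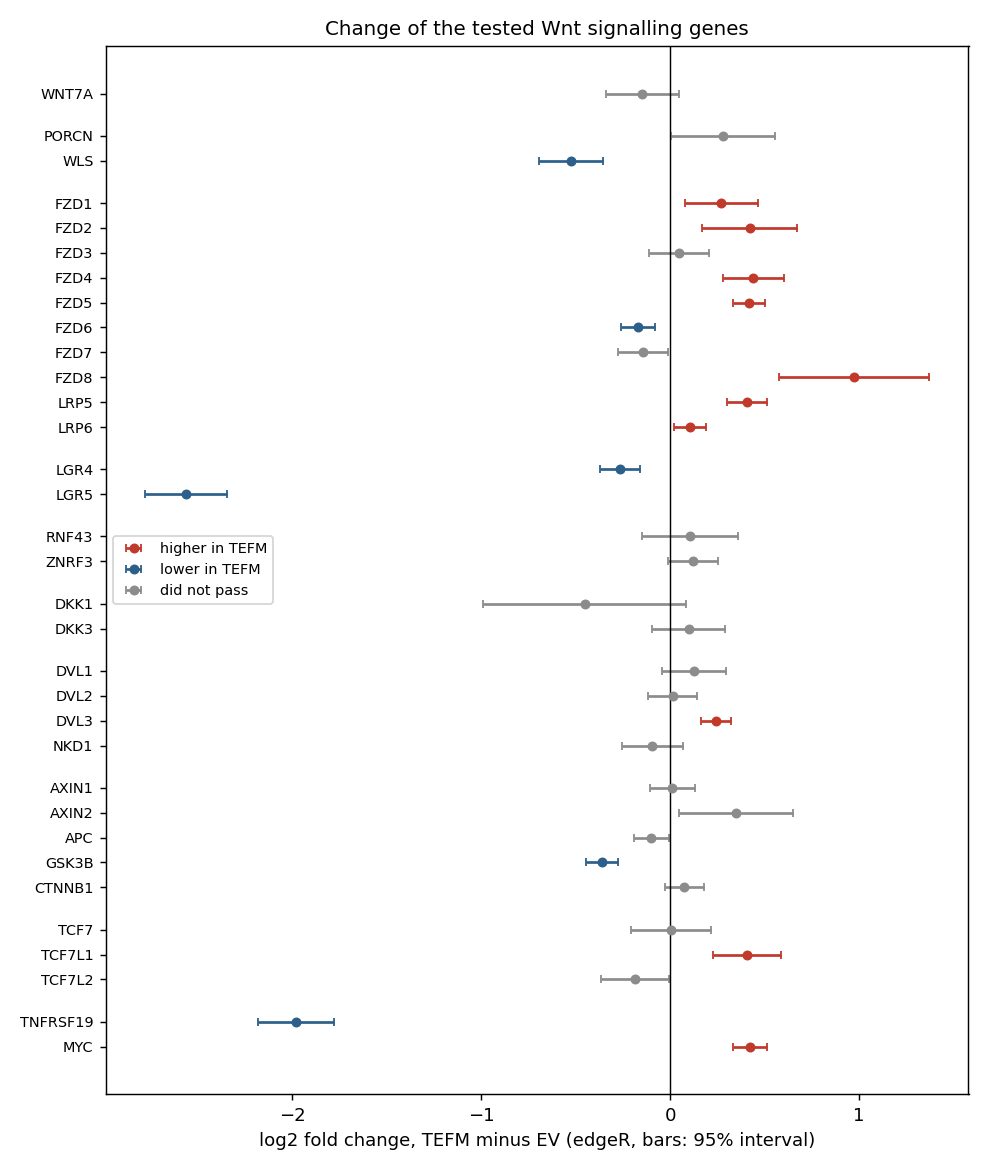
Log2 fold change, TEFM minus EV, of the 33 tested Wnt genes from edgeR with 95% intervals, ordered by role from ligands at the top to targets at the bottom, with colour giving the call. The intervals of LGR5 (-2.78 to -2.35) and TNFRSF19 (-2.18 to -1.78) stand apart from those of the other 31 genes.

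In the rest of the wider list, calls were spread over both directions. Of its 93 genes, 51 were tested, with 16 called higher (31.4%) and 16 lower (31.4%), against 21.7% in each direction over all tested genes, and a median log2 fold change of 0.01. PRICKLE1, a component of planar cell polarity, had the largest rise among the 51 tested genes, with 10.3, 11 and 10.6 FPKM in the TEFM libraries, against 4.5, 5.02 and 4.19 FPKM in the EV libraries (log2 fold change 1.26, standard error 0.0642, edgeR adjusted p = 8.22e-14). Of 7 tested genes of planar polarity, 4 were called higher (57.1%) and 0 lower, against 21.7% in each direction over all tested genes, the others being VANGL2 (log2 fold change 0.27), CELSR2 (0.22) and VANGL1 (0.17). The call of CELSR2 was lost with limma (adjusted p = 0.0510). KREMEN2, a co-receptor of DKK1, had 1.84, 2.21 and 1.59 FPKM in the TEFM libraries, against 1.12, 0.96 and 0.82 FPKM in the EV libraries (log2 fold change 1.00), and passed the filter only through the TEFM libraries.

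Kinases and regulators of the destruction complex in the wider list gave 3 genes higher (25%) and 4 lower (33.3%) of 12 tested, against 21.7% in each direction over all tested genes. The casein kinase gene CSNK1G1 had the largest fall of these, with 6.23, 6.39 and 7.01 FPKM in the TEFM libraries, against 9.08, 9.37 and 8.83 FPKM in the EV libraries (log2 fold change -0.44, edgeR adjusted p = 8.4e-07). Tankyrase 1, TNKS, which marks AXIN for degradation, had a log2 fold change of -0.39 and was called. Among the 3 higher, CSNK1D and CSNK1E lost their calls with limma (adjusted p = 0.0659 and 0.118), and CSNK1E also with DESeq2 (0.0671). Among the 4 lower, TNKS2 lost its call without TEFM replicate 3 (edgeR adjusted p = 0.0607) or EV replicate 1 (0.0801). Nuclear cofactors gave 3 higher (23.1%) and 5 lower (38.5%) of 13, against the same 21.7%. Of those higher, TLE5 and CHD8 lost their calls with limma (adjusted p = 0.165 and 0.0641). Of those lower, CREBBP lost its call without TEFM replicate 1 (edgeR adjusted p = 0.0674) or EV replicate 1 (0.0721). BCL9L, a beta-catenin cofactor, had a log2 fold change of 0.32, and its 74 tested neighbours in the same 10 Mb bin of chromosome 11 had a median of 0.39. CXXC5, a Dishevelled-binding inhibitor, had a log2 fold change of 0.24 and was called. Of the 42 genes of the wider list under the filter, 6 were called higher and 3 lower in the fit without one, where 9.46% of 37256 genes were called higher and 9.23% lower. Besides EPHB2, the smallest adjusted p were those of DAAM2, higher, and CXXC4, lower. DAAM2 had a log2 fold change of 1.54 (edgeR adjusted p = 3.14e-14). CXXC4 had 75, 73 and 58 counts in the TEFM libraries, against 202, 154 and 155 in the EV libraries (log2 fold change -1.27, edgeR adjusted p = 1.14e-12).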

How the data were processed

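TRIzol RNA was enriched for poly(A) on oligo(dT), fragmented and randomly primed, per the labels' protocols. The submitters' processing notes name cutadapt 1.9.1 and hg19; no source used here names the aligner, the counter or the strand setting. All 43 genes overlap their GENCODE v29 (GRCh38) interval and 34 share an exact start or end, so the table's coordinates follow GRCh38. The deposited values, per the file headers, are raw counts and FPKM per library. The deposited FPKM equal those counts scaled to the deposited exonic size and to the column total, to within 0.005.

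Genes with a mean of at least 1 FPKM (14254) were tested on the counts with edgeR 4.0.16, run under R 4.3.3 (TMM, quasi-likelihood F test, two-sided, Benjamini-Hochberg over all tested genes, threshold 0.05); the standard error follows from F. The fit was also run on simulated counts with far fewer changed genes than were called here and the same variation for every gene. That run cannot show how the fit behaves with as many changes as in these data. Neighbours are tested genes in the same fixed 10 Mb bin, so genes just beyond the edge of a bin are left out. Overlap of the groups was judged on FPKM not rescaled by TMM, except for the rescaled Frizzled sums. On the TMM scale of the test, overlap can differ for genes whose groups lie close, such as NKD1, ZNRF3 and LRP6. No 2 libraries agreed within sampling noise (chi-square per degree of freedom 2.15 to 4.70 within groups, 25.4 to 33.3 between). The largest values within groups were those of EV replicate 3, 4.49 and 4.70 against EV replicates 1 and 2, which gave 2.53 with each other. Leaving out EV replicate 3 gave 6270 called genes in place of 6184, and leaving out any other library gave 5157 to 5503. An exact permutation test of 3 against 3 cannot go below p = 0.1.

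The Wnt genes, their roles and the wider list were chosen with earlier results of these data known. All listed Wnt genes are named, and from the wider list the called gene with the largest change in each role and the 5 largest rises and falls. GSK3A, VANGL1, VANGL2, CELSR2, RYK, PTK7, TNKS, SOX4, SOSTDC1, FZD9, FZD10 and genes that did not pass were added after their values were seen. So were EPHB2, DAAM2, CXXC4, CSNK1D, CSNK1E, TNKS2, TLE5, CHD8 and CREBBP. Alternatives were other scalings and filters, DESeq2 1.42.0, limma 3.58.1 with pseudocounts of 1 and 0.1, robust dispersions, a replicate block and leaving out each library. Reading genes under the filter from the fit without one, and rescaling summed Frizzled FPKM, were chosen after seeing the data.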

Additional observations from a re-analysis of the deposited data

How the results depend on the processing

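Across 17 alternatives, 13 of the 16 called Wnt genes kept their direction and their side of the threshold under every one that tested them; FZD1, FZD2 and LRP6 did not, and no called gene reversed. LGR5 ranged from -2.62 to -1.92 and TNFRSF19 from -2.03 to -1.54, with the values nearest 0 from limma on log2(FPKM + 1), whose pseudocount shrinks low genes by construction. With a mean of at least 5 FPKM, fewer genes are tested by construction, and 4149 genes of the whole table were called in place of 6184. There 5 Wnt genes were called higher and 6 lower. The targets called lower became 0, since LGR5 and TNFRSF19 fall below that mean. The number of targets called higher, 1, became 2 with upper-quartile scaling, robust dispersions or a replicate block (AXIN2 passing in each), 3 without a filter and 4 at a mean of at least 0.1 FPKM, and ranged from 1 to 2 with 1 library left out. Same-numbered libraries had deviations correlated at -0.09, 0.06 and -0.07, and differently numbered libraries at -0.09 to 0.15. These values showed no sign of pairing by number, which 3 libraries per group are too few to exclude. With the replicate block 5935 genes were called in place of 6184. Rescaled by TMM, the summed Frizzled FPKM had a TEFM to EV ratio of 1.06 in place of 1.03, and the groups no longer overlapped. Wnt genes under the filter had at most 78 counts a library, which limits their precision. Of the 5 called without it, LGR6, SFRP1, NKD2 and SP5 lost the call with some library left out and NOTUM kept it with each.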
